A study of Mus musculus with 2 samples.

Results

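Fpr2 and 8 annexins (Anxa1, Anxa2, Anxa3, Anxa4, Anxa5, Anxa6, Anxa7 and Anxa11) were followed in RNA of splenic CD4+ T cells, each gene by every probe set that carries its symbol in the platform annotation. They have 16 of 22626 probe sets, and 8 of the 9 are among the 12393 genes with a probe set of 1 symbol; Anxa11 is not. The genes were chosen by the DBA/1 and C57BL/6 signals of these same arrays, on which Fpr2 and Anxa1 had shown some of the largest differences, so their values are a description and carry no test.

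The study took spleens on day 7 after immunisation with GPI, the glycolytic enzyme glucose-6-phosphate isomerase, used here as an autoantigen that induces arthritis. The groups were DBA/1 mice, labelled arthritis susceptible, and C57BL/6 mice, labelled arthritis resistant, and both had been immunised. CD4+ T cells were enriched with magnetic beads, and 1 array was hybridised per strain. The sources used here give neither the age and sex of the mice nor how many were pooled for an array, and no unimmunised mice were analysed here. With 1 array per strain no difference below has a replicate error or a p-value, and the number of arrays limits the precision of each value.

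Annexins are cytosolic proteins that bind acidic phospholipids when calcium rises, and so attach to membranes during exocytosis, membrane repair and vesicle traffic. Each has a conserved core of repeats and its own amino-terminal tail, which sets its partners. Annexin A1 is also released by cells, above all by neutrophils and macrophages, and its amino-terminal peptide acts on formyl peptide receptors; glucocorticoids induce it, and it limits leukocyte recruitment. Fpr2 is a G protein-coupled receptor of phagocytes that binds formylated bacterial peptides and many host peptides, annexin A1 among them.

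Values are array signals on a linear scale. The median signal of each array, 37.55 for DBA/1 and 38.04 for C57BL/6, served as a floor: a lower signal was set to it, and where 1 strain was at the floor the ratio is a bound, written "at least". Ratios are DBA/1 over C57BL/6 unless stated otherwise. For 2325 genes both strains could be read above the floor by at least 2 probe sets, and the log2 ratios of the brightest 2 differed with an SD of 0.43, or 0.31 per probe set, which covers probe error only. Of the 6936 genes above the floor on at least 1 array, 3.84% had a DBA/1 signal at least 2-fold above that of C57BL/6, and for 1.9% it was C57BL/6 that exceeded DBA/1 by 2-fold or more. Their median log2 ratio was 0.10, slightly towards DBA/1. Whether array scaling or the samples themselves account for this lean was not tested.

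The sorted samples carried the measured T cell markers within 2-fold between strains and genes of other spleen cells at more unequal signals. Of 10 measured T cell markers 2 were higher in DBA/1 and 8 in C57BL/6, beside 60.6% of all 6936 genes higher in DBA/1. None differed 2-fold, and Zap70 (log2 ratio -0.67) and Thy1 (-0.54) had the lowest ratios. The summed signal of the 10 was 0.921 times as high in DBA/1 as in C57BL/6. Cd4 itself read 913 and 857. The 16 measured neutrophil markers summed to 36048 in DBA/1 and 11244 in C57BL/6; 15 of them were above the floor, all higher in DBA/1 and 14 at least 2-fold. Only Cxcr2 was under the floor on both arrays. Of 13 monocyte and macrophage markers 11 were above the floor, 10 of them higher in DBA/1 and 4 at least 2-fold, with a summed signal of 9378 against 5463; Fcgr1 and Vcan were under the floor on both arrays. B cell markers summed to 1785 and 961 over 10 genes, dendritic cell markers to 4121 and 1644 over 6 genes, and CD8 T cell markers to 527 and 1465 over 6 genes. Pax5 and Xcr1, defining genes of B cells and of a dendritic cell subset, were under the floor on both arrays. In bulk RNA of this kind, fewer cells of a type and less RNA per cell cannot be told apart.

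Of the 8 genes measured under 1 symbol, 5 were at least 2-fold higher in DBA/1 (Fpr2, Anxa1, Anxa3, Anxa4 and Anxa2) and 3 lay within 2-fold (Anxa5, Anxa6 and Anxa7), by the brightest probe set of each. None was at least 2-fold higher in C57BL/6 by that probe set. Over all 6936 genes, the shares that differed 2-fold or more were 3.84% towards DBA/1 and 1.9% towards C57BL/6. A ratio above 1 was seen for 7 of the 8, beside 60.6% of all 6936 genes. The counts of Fpr2 and Anxa1 follow from how the genes were picked, and all 8 were chosen with results of these arrays known.

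**Figure D1:**
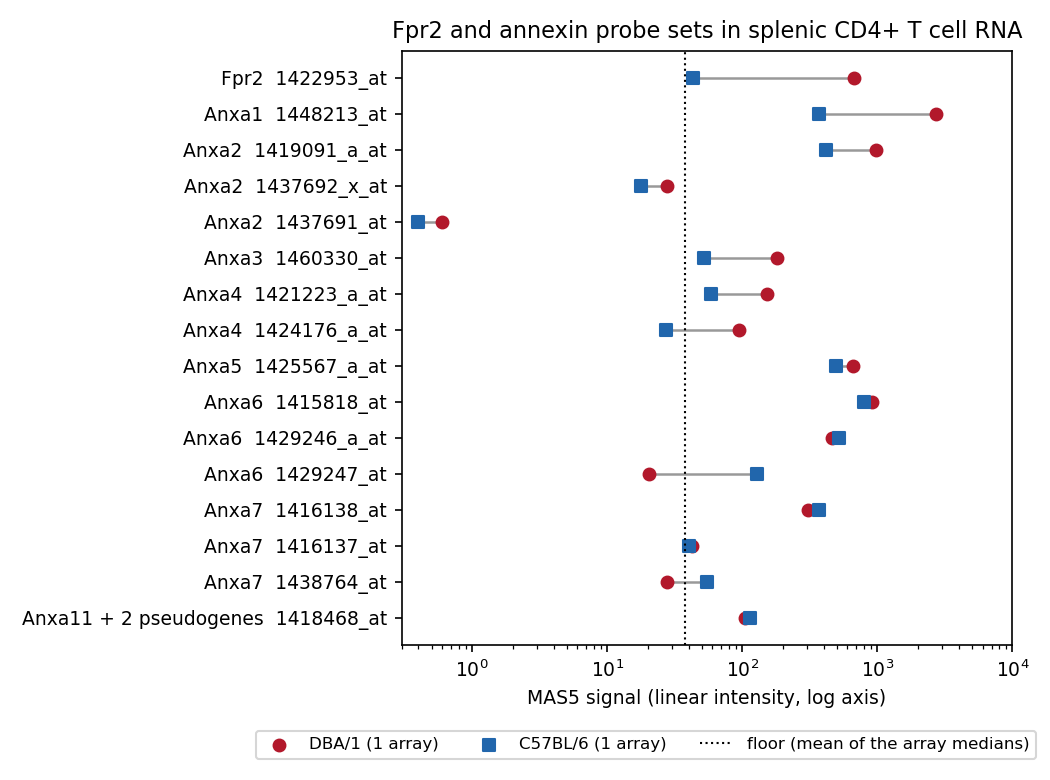
MAS5 signal (log axis) of every Fpr2 and annexin probe set on the DBA/1 array (circles) and the C57BL/6 array (squares), with a line joining the pair and a dotted line at the floor. The widest gaps are those of Fpr2 and Anxa1, and the faint Anxa6 probe set 1429247_at runs opposite to the other annexin probe sets with wide gaps.

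Fpr2, the receptor, had the highest ratio of the 6402 genes above the floor on both arrays; genes under the floor on 1 array have only a bound and cannot be ranked against it, and with the floor at percentile 60 Cap1 (9.38-fold) lay above the bound of Fpr2. Its only probe set, 1422953_at, read 668 in DBA/1 and 42.8 in C57BL/6. The DBA/1 signal was thus 15.6-fold higher, a log2 ratio of 3.97. The C57BL/6 signal lay only just above the floor, so the size of the fold rests on a signal near background: with the floor raised to percentile 60 it was at least 9.23-fold, and with log2(signal + 32) it was 9.37-fold.

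The other formyl peptide receptors could be followed only in part. Fpr-rs3 read 0.651 and 0.958 and Fpr-rs4 4.17 and 2.61 in DBA/1 and C57BL/6, all under the floor. Both are close relatives of Fpr2 that are known mainly from the vomeronasal organ. Fpr1 and Fpr3, which phagocytes carry beside Fpr2, had no probe set of 1 symbol and were not analysed here.

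Anxa1, which encodes the protein ligand of the receptor, came next among these genes. Probe set 1448213_at read 2723 in DBA/1 and 371 in C57BL/6, both far above the floor. The ratio was 7.33-fold (log2 2.87), and 5 of the 6402 genes above the floor on both arrays had a higher one. Unlike Fpr2, Anxa1 kept nearly the same value under every scaling and floor tried, between 2.70 and 2.87 on the log2 scale. Ligand and receptor differed from each other by 1.09 in log2 ratio, more than the 0.43 by which probe sets of 1 gene typically differ, although with the floor at percentile 60 the bound for Fpr2 was 3.21 against 2.87 for Anxa1.

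**Figure D2:**
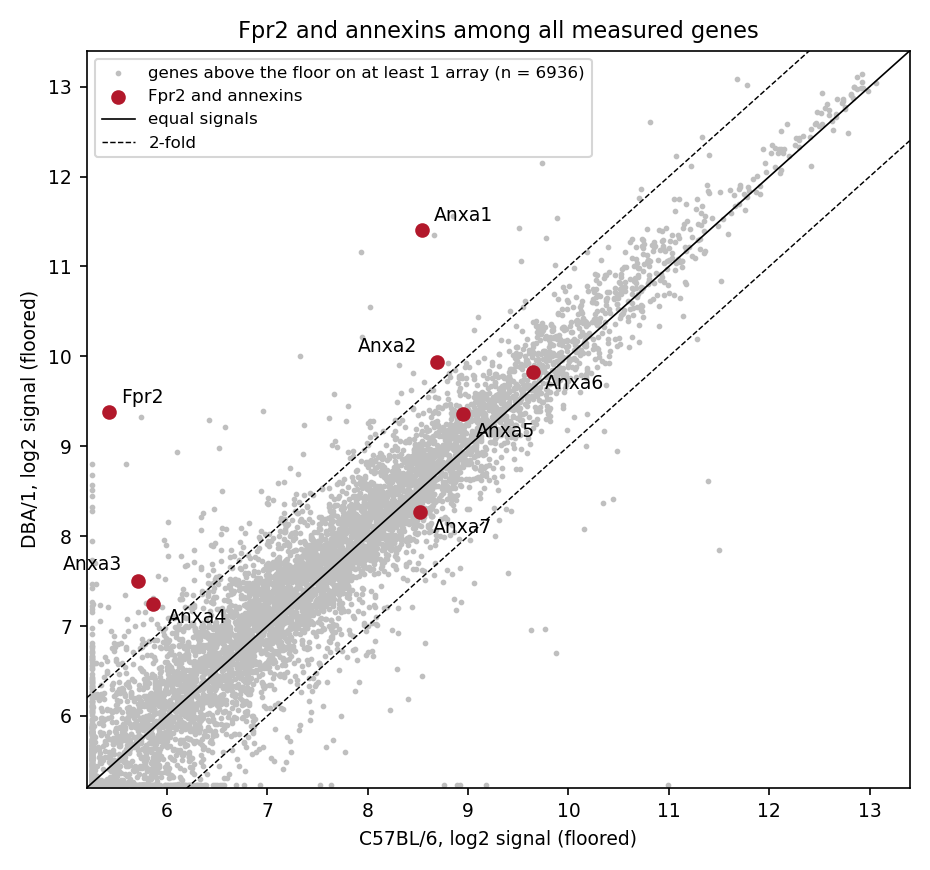
Floored log2 signals of 6936 genes in C57BL/6 (x axis) and DBA/1 (y axis), with Fpr2 and the annexins named; the solid line marks equal signals and the dashed lines 2-fold. Fpr2 and Anxa1 stand well above the upper dashed line, Anxa3, Anxa4 and Anxa2 just above it, and Anxa5, Anxa6 and Anxa7 between the lines.

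The 250 bases before the annotated start of Fpr2 and Anxa1, the pair with the widest differences, are shown beside those of Anxa5, which lay within 2-fold, from RefSeq on GRCm38.p6, a C57BL/6J reference. They are Fpr2 chr17:17887574-17887823 (plus strand), Anxa1 chr19:20390672-20390921 (minus strand) and Anxa5 chr3:36475888-36476137 (minus strand), each written 5′ to 3′ on the gene's strand with motif matches in capitals.
Fpr2: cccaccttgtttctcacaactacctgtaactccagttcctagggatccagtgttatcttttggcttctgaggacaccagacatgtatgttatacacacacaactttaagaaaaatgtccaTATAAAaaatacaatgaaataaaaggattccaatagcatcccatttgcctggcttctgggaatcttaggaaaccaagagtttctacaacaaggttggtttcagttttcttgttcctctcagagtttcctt
Anxa1: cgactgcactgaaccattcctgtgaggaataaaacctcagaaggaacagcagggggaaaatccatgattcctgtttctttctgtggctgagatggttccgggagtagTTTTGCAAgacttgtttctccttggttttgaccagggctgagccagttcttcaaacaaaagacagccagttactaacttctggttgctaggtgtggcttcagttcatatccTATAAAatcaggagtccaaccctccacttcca
Anxa5: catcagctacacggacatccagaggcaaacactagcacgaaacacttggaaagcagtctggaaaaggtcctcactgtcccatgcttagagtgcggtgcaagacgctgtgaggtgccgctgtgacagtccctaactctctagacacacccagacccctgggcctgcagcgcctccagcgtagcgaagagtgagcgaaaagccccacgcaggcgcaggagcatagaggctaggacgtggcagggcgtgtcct
The letters searched were TATAAA on the gene's strand, and on both strands TTGCNNAA for C/EBP (a factor family of myeloid genes), GAGGAAG for PU.1 (a myeloid and B cell factor) and AGAACA for the glucocorticoid receptor. Anxa1 held TATAAA 32 to 27 bases before its start and 1 C/EBP match 143 to 136 bases before it. Fpr2 held TATAAA 130 to 125 bases before its start, and Anxa5 held no match. Among the windows not shown, Anxa2 held TATAAA 17 to 12 bases before its start. Anxa4 held 1 C/EBP match and 2 glucocorticoid receptor matches before 1 annotated start and no match before another. Anxa7 and Anxa11 held no match. Over 32851 such windows, 7.59% held TATAAA, 9.56% the C/EBP letters, 10.6% the PU.1 letters and 16.1% the glucocorticoid receptor letters, and in the windows shown no match overlapped another. GC content was 38.8% for Fpr2, 46.0% for Anxa1 and 58.8% for Anxa5. A match of letters is a description and not a bound site. Matching by symbol gave a window for 7 of the 9 genes, with Anxa3 and Anxa6 missing.

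Among the other annexins, Anxa3, Anxa4 and Anxa2 formed the upper group. Anxa3, an annexin of neutrophil granule membranes, read 182 in DBA/1 and 52.2 in C57BL/6 on its only probe set, 1460330_at, a ratio of 3.48-fold (log2 1.80). Anxa4, an annexin best known from secretory epithelia, read 152 and 58.2 on probe set 1421223_a_at, a ratio of 2.61-fold (log2 1.38). Its second probe set, 1424176_a_at, read 93.8 in DBA/1 and 27.1, under the floor, in C57BL/6, and gave at least 2.47-fold. Both Anxa4 probe sets thus pointed the same way, with signals that were faint in both strains.

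Anxa2, whose product forms a tetramer with S100a10 and binds plasminogen at the cell surface, was measured well above the floor by 1 of its 3 probe sets. Probe set 1419091_a_at read 978 in DBA/1 and 414 in C57BL/6, a ratio of 2.36-fold (log2 1.24). The remaining pair, 1437692_x_at and 1437691_at, stayed under the floor on both arrays, at 27.5 and 17.8 and at 0.596 and 0.400, and so gave no ratio. In the order of ratios Anxa3, Anxa4 and Anxa2 span 1.80 to 1.24; neighbours in that order differ by no more than the probe error of a pair, 0.43.

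Anxa5, Anxa6 and Anxa7 formed the lower group. Anxa5, which binds exposed phosphatidylserine and is the reagent used to stain dying cells, read 655 in DBA/1 and 496 in C57BL/6 on probe set 1425567_a_at (log2 0.40). Its ratio was higher than that of 78.7% of the 6936 genes, and its log2 ratio was close to the probe error of 0.31. Anxa7, also known as synexin, read 307 and 368 on 1416138_at (log2 -0.26), while 1416137_at read 42.5 and 40.4 (0.07) and 1438764_at read 27.6, under the floor, and 54.9, at least 1.46-fold higher in C57BL/6. The 2 of these that were above the floor in both strains lay within 2-fold.

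Anxa6, the annexin with a doubled core that is abundant in lymphocytes, gave probe sets that disagreed. Probe set 1415818_at read 905 in DBA/1 and 800.2 in C57BL/6 (log2 0.18), and 1429246_a_at read 460.3 and 523 (-0.18). These 2 differ in sign, but by less than the probe error of a pair. The third, 1429247_at, read 20.4, under the floor, in DBA/1 and 129 in C57BL/6, which makes it at least 3.43-fold higher in C57BL/6. It was the only probe set among those of 1 symbol at least 2-fold higher in that strain. Averaged over its 3 probe sets Anxa6 lay at -0.60 in place of 0.18, so its direction depends on the probe set.

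Anxa11 was read by a single probe set, 1418468_at, whose annotation lists 2 transcribed pseudogenes beside Anxa11, so the signal cannot be assigned to 1 gene. It read 105 in DBA/1 and 113 in C57BL/6 (log2 -0.10). The remaining annexins on the array, Anxa8, Anxa9, Anxa10 and Anxa13, were under the floor on both arrays in all their probe sets.

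Anxa1 and its receptor gene Fpr2 had higher ratios than the other annexins. Both had shown some of the largest differences when the genes were picked, so this order carries no test. The 6 other annexins with 1 symbol had a median log2 ratio of 0.82 (1.77-fold), against a median of 0.10 over all 6936 genes. Of the 6, 3 were at least 2-fold higher in DBA/1, beside 3.84% of all 6936 genes. The 6 were likewise chosen with results of these arrays known, so their count carries no test. Anxa1 exceeded the median of the 6 by 2.05 and the next annexin, Anxa3, by 1.08. The median of the 6 falls between a higher and a lower group and moves with membership: with the ambiguous probe set counted as Anxa11 it was 0.40. Leaving out probe sets that end in _s_at, _x_at or _a_at removed Anxa2, Anxa4 and Anxa5 and left a median of 0.18 over 3 annexins, with 3 genes, Fpr2, Anxa1 and Anxa3, at least 2-fold higher in DBA/1.

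**Figure D3:**
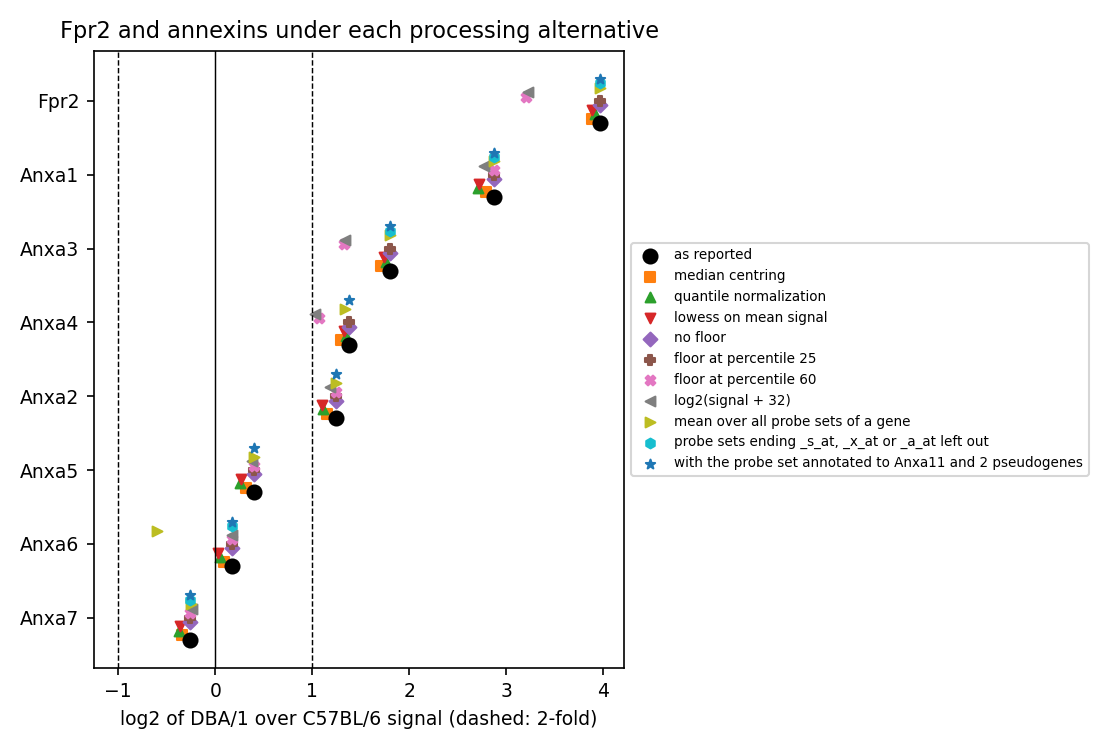
Log2 ratio of each gene (rows) as reported (black) and under 10 processing alternatives (coloured symbols); dashed lines mark 2-fold. Fpr2, Anxa3 and Anxa4 shift left with a higher floor or an added constant and stay beyond 2-fold, and Anxa6 crosses 0 when its 3 probe sets are averaged.

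Most markers of neutrophils, monocytes and macrophages, dendritic cells and B cells ran in the same direction as the upper group. The log2 ratios of the 15 usable neutrophil markers ranged from 0.53 to 2.84, with a median of 1.41. Anxa2, Anxa3 and Anxa4 lay inside that range, and 12 of the 15 markers had a ratio at or above that of Anxa2. Anxa1, at 2.87, and Cd177, a neutrophil surface protein and the highest marker, at 2.84, differed by less than the probe error. Fpr2, at 3.97, lay above all 15. Monocyte and macrophage markers had a median of 0.86 and ranged from -0.03 to 1.77, which takes in Anxa2 and Anxa4. Dendritic cell markers had a median of 1.00 over 5 usable genes and ranged from 0.69 to 1.54, which takes in Anxa2 and Anxa4. B cell markers had a median of 1.09 over 9 usable genes, 7 of them at least 2-fold higher in DBA/1. Their range, -1.70 to 1.51, also takes in Anxa2 and Anxa4. The lowest B cell marker, Cd72, was 3.24-fold higher in C57BL/6. T cell markers ranged from -0.67 to 0.09. The part of other spleen cells in the annexin and Fpr2 differences was not tested.

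The genes whose pair of signals was most like that of Fpr2 or Anxa1 were found by Euclidean distance over the floored log2 signals of the 2 arrays. For Fpr2 the nearest 5 were Serpinb1a, an inhibitor of neutrophil proteases (distance 0.33), H2-Ea, an MHC class II chain (0.60), Hp, which encodes haptoglobin (0.61), Tmem87a (0.72) and Cd177 (0.82). For Anxa1 they were Ltf, which encodes lactoferrin (0.14), Lcn2, which encodes lipocalin 2 (0.35), Cap1, an actin regulator (0.65), Ctse, an aspartic protease (0.97) and Lgals3, which encodes galectin 3 (1.00). H2-Ea and Tmem87a read 2.17 and 10.3 in C57BL/6, under the floor, so they are near to Fpr2 only after the floor replaced those signals. With 2 arrays such likeness says only that the floored signals were similar.

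Host ligands of Fpr2 were higher in DBA/1 where they could be measured. All 7 listed genes had a probe set, and 4 were above the floor. Of these 4, 3 were at least 2-fold higher in DBA/1, beside 3.84% of all 6936 genes. Hebp1, the precursor of the F2L peptide that activates Fpr2, read 628 and 85.6, a ratio of 7.34-fold. Camp, which encodes the cathelicidin CRAMP and is also a neutrophil granule gene on the marker list above, read 4546 and 854, a ratio of 5.32-fold. App, the source of amyloid beta peptides, read 623 and 260 (2.40-fold), and a second probe set gave 2.78-fold. The remaining App probe sets, 1438373_at and 1438374_x_at, were under the floor on both arrays. Prnp read 185 and 119 (1.55-fold). The serum amyloid genes Saa1, Saa2 and Saa3 were under the floor on both arrays.

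S100 and related calcium-binding partners of annexins were also higher in DBA/1, 3 of 5 by at least 2-fold. Over all 6936 genes, 60.6% had a ratio above 1 and 3.84% were at least 2-fold higher in DBA/1. S100a10, the partner of Anxa2, read 3477 in DBA/1 and 1671 in C57BL/6 (2.08-fold), a ratio close to the 2.36-fold of Anxa2, while its second probe set read 1820.2 and 1127 (1.62-fold). S100a6 was 2.53-fold and S100a4 2.21-fold higher. Pdcd6, a partner of Anxa7 and Anxa11, was 1.47-fold higher. Sri (sorcin), a partner of Anxa7, read 1128 and 959 (log2 0.23), near the median of all genes. S100a11, the partner of Anxa1, had no probe set of 1 symbol and was not analysed here. Both S100a4 and S100a6 are also expressed in myeloid cells.

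In the G protein route below the receptor, 8 of 9 genes were above the floor. None of the 8 differed 2-fold by its brightest probe set. Differences of that size were rare on these arrays: 3.84% of all 6936 genes reached them towards DBA/1 and 1.9% towards C57BL/6. Their absence here therefore does not set the list apart. A ratio above 1 was seen for 7 of the 8, beside 60.6% of all genes. The median log2 ratio of the list was 0.23, against 0.10 over all genes. Gnai2, the main inhibitory G protein subunit of leukocytes, read 1233 and 1050.4 (log2 0.23), and Rac2, a GTPase of leukocyte migration, 2472 and 2140 (0.21). A second probe set of the beta subunit Gnb1 read 430 in DBA/1 and 181 in C57BL/6 (2.38-fold), against 0.37 in log2 ratio for the first. Gng2 lay at 0.65 and Pik3cg at -0.08.

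Lipid mediator genes are listed because annexin A1 inhibits the cytosolic phospholipase that starts their route and because lipoxins share its receptor. Of 8 measured genes 5 were above the floor. Among these, 3 were at least 2-fold higher in DBA/1, beside 3.84% of all 6936 genes. Alox5ap, the activating protein of 5-lipoxygenase, read 1251 and 532 (2.35-fold). Ltb4r1, a leukotriene B4 receptor, was at least 2.64-fold higher, with the C57BL/6 signal at 17.4, under the floor. Pla2g4a, the cytosolic phospholipase A2, was at least 2.09-fold higher, with signals of 79.7 and 38.0, the latter just under the floor. Lta4h read 1056 and 974 (log2 0.12) and Ptgs2 125 and 82.0 (0.61). Alox15, Ltc4s and Ptges were under the floor on both arrays, and Alox5 and Ptgs1 had no probe set of 1 symbol.

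Glucocorticoid response genes are listed because glucocorticoids induce Anxa1 in other settings. All 11 were above the floor on at least 1 array, with a median log2 ratio of -0.01, against 0.10 over all 6936 genes. Of them 5 were higher in DBA/1, beside 60.6% of all genes, and 6 were higher in C57BL/6. Of the 11, 1 was at least 2-fold higher in DBA/1, beside 3.84% of all genes. The receptor gene Nr3c1 read 553 and 670.3 (-0.28). Tsc22d3, which encodes the leucine zipper protein GILZ, read 825 and 901 (-0.13), Fkbp5 162 and 190 (-0.23), Dusp1 2524 and 2541 (-0.01) and Per1 81.2 and 80.9 (0.00). By the brightest probe set Zfp36 lay at 0.42, Sgk1 at 0.35, Hsd11b1 at 0.06 and Nfkbia at -0.04. Klf9, under the floor in DBA/1, was at least 1.30-fold higher in C57BL/6. The gene at least 2-fold higher was Il1r2, a decoy receptor of interleukin 1 that neutrophils also express, at 147 and 57.8 (2.55-fold). Any part of glucocorticoids in the Anxa1 difference was not tested.

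**Figure D4:**
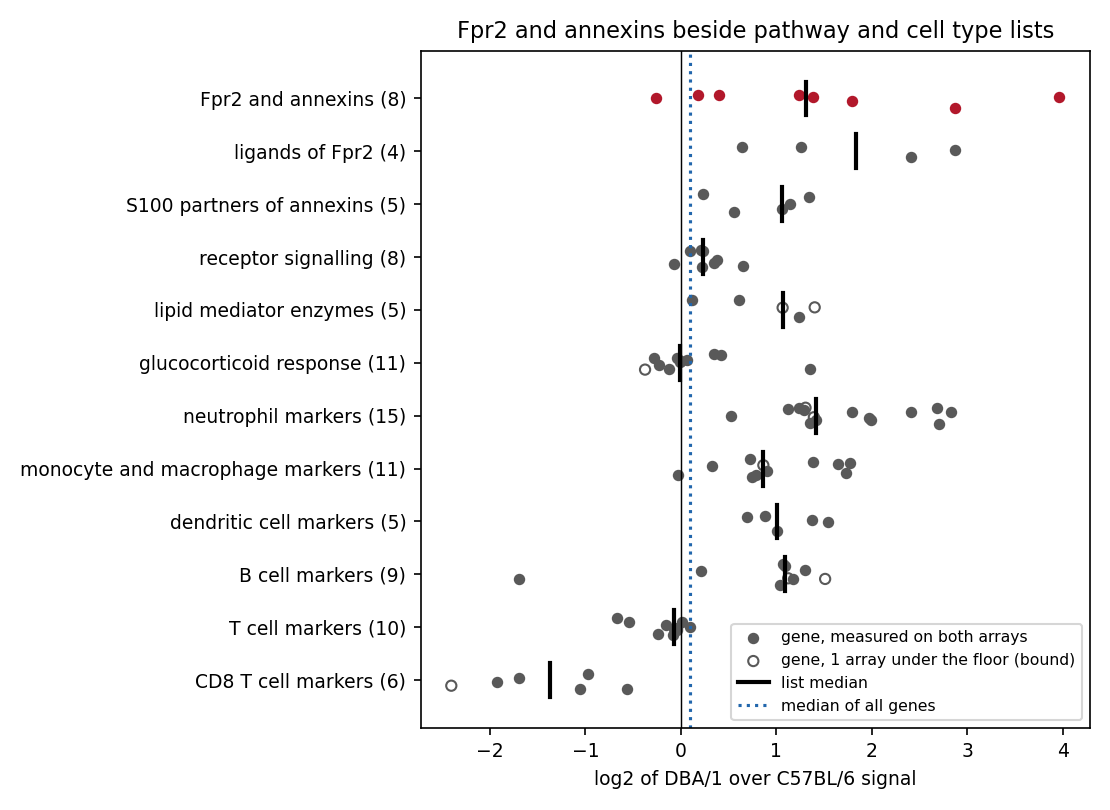
Log2 ratio of each gene above the floor on at least 1 array (points, open where 1 array is under the floor), by list, with the list median (black bar), the number of genes in parentheses and the median of all genes (dotted line). Fpr2 and the annexins spread from -0.26 to 3.97; glucocorticoid response and T cell genes centre near 0 and neutrophil markers lie between 0.53 and 2.84.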

How the data were processed

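RNA from 2 samples, 1 per strain, was measured on oligonucleotide arrays. Total RNA (3 µg) was primed with oligo(dT)-T7 and made into biotin-labelled cRNA, per the labels' protocols, which samples transcripts near the 3' end. The deposited table holds 1 linear intensity per probe set and array, computed with MAS5 per the submitters' processing notes, with version and scaling target unstated.

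The platform annotation gave 1 symbol for 20380 of 22626 probe sets, several for 691 and none for 1555, and 64 controls were left out of gene values. A gene was represented by its brightest probe set (mean log2 signal over both arrays). No test was made. The members, the gene lists and the rule for named genes (the members, the list genes, the 5 nearest genes and 3 neighbours on each side) were chosen with earlier results of these data known. Alternatives were median centring, quantile normalization, lowess (span 0.3), log2(signal + 32), floors at percentile 25 or 60 or none, the mean over probe sets and omission of probe sets by suffix. Ratios were checked on simulated data. Python 3.11.15, pandas 2.3.3 and statsmodels 0.14.6 were used.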

Additional observations from a re-analysis of the deposited data

How the results depend on the processing

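Counting the ambiguous probe set as Anxa11 was chosen after seeing the data; the other 9 alternatives were listed earlier. The log2 ratio of Fpr2 was 3.97 as reported, 3.21 with a percentile 60 floor, 3.23 with log2(signal + 32) and 3.88 to 3.97 otherwise. Both settings act on its C57BL/6 signal, which is near the floor. Anxa1 stayed between 2.70 and 2.87. The median of the other annexins was 0.82, but 0.18 without probe sets ending in _s_at, _x_at or _a_at (3 annexins left) and 0.40 with the ambiguous probe set; Anxa1 exceeded it by 2.05, 2.70 and 2.47 in turn. Without those suffixes 3 genes in place of 5 were at least 2-fold higher in DBA/1; of these suffixes, _a_at marks probe sets shared by transcripts of 1 gene. None was at least 2-fold lower under any alternative. Anxa6 changed sign (-0.60) as the mean of its probe sets, 1 of which is a bound. Median centring moved the median over all genes from 0.10 to 0.02. No paired analysis was possible because each strain has 1 array. Leaving out an array was not possible for the same reason, and variation between mice was not measured.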

Other observations

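The measured genes next to Fpr2 and Anxa1 in RefSeq gene order did not include another with so high a ratio. Around Fpr2 on chromosome 17, Lix1, Has1, Fpr-rs4 and Fpr-rs3 were under the floor on both arrays, Riok2, a kinase of ribosome assembly, read 56.0 in DBA/1 and 116 in C57BL/6 (log2 ratio -1.05), and the phosphatase subunit Ppp2r1a read 1534 and 1434 (0.10). Around Anxa1 on chromosome 19, Trpm6, Rorb, Aldh1a7 and Tmc1 were under the floor on both arrays. Aldh1a1, a retinaldehyde dehydrogenase, read 75.8 in DBA/1 and 36.5 in C57BL/6, the latter under the floor (at least 1.99-fold), and D030056L22Rik read 73.8 and 90.5 (-0.29). The 3 nearest measured genes on each side were taken, whatever their distance.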
